A study of Rattus norvegicus with 18 samples.

Results

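Glucocorticoid-induced target genes were followed in the hypothalamus of 18 male Wistar rats through 10 genes: Fkbp5, Sgk1, Tsc22d3, Zbtb16, Pdk4, Klf9, Klf15, Ddit4, Errfi1 and Cdkn1a. They were found by matching the transcript accession of every array probe to these symbols, which gave 15 of the 45598 probes on the array. Of these, 13 probes for 9 of the genes were bright enough to test, among 31283 tested probes for 13045 genes in all. Rats exposed to stress with exercise (n = 6) were restrained for 1 to 1.5 h on 5 days of the week during 3 weeks, and had a wheel for voluntary running during 4 weeks, of which the first preceded the restraint. Stress rats (n = 6) had the same restraint and no wheel. Control rats (n = 6) had neither. The rats entered the study at 5 weeks of age and were 9 weeks old at collection. All of them, controls included, inhaled ether before decapitation, and no label states how long after the last restraint the tissue was taken. By its title, the series addresses how exercise acts on the exchange between brain and bone marrow in hypertension caused by chronic stress.

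Glucocorticoids, in rats mainly corticosterone, leave the adrenal gland when the hypothalamus and pituitary are driven by stress. The glucocorticoid receptor then moves into the nucleus, binds DNA at glucocorticoid response elements and raises transcription of a set of genes that many tissues share. In the hypothalamus this signal closes the feedback loop that limits the next hormone surge. Transcripts of the set follow the hormone within hours, so that their level at collection reflects recent as well as repeated exposure.

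Fkbp5 encodes a co-chaperone that lowers the receptor's affinity for hormone. Sgk1 encodes a kinase that acts on ion channels, and Tsc22d3 encodes GILZ, an anti-inflammatory protein. Zbtb16, Klf9 and Klf15 encode zinc-finger transcription factors. Pdk4 encodes a kinase that holds back pyruvate dehydrogenase. Ddit4 encodes an inhibitor of mTORC1, Errfi1 an inhibitor of the EGF receptor, and Cdkn1a the cell cycle inhibitor p21.

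RefSeq's promoter table (build GRCr8) matched 9 of the 10 genes, with 13 windows, and Zbtb16 had no match. The 250 bases before a start are shown for Klf9 and Cdkn1a, the pair whose levels moved together most closely over the rats, and for Fkbp5. Among tested probes that are their gene's only probe, that of Fkbp5 had the largest difference between groups. Capitals mark CACCC or its reverse complement GGGTG, and GGGCGG or CCGCCC. The Klf9 window is chr1:230126396-230126645 on the plus strand, that of Cdkn1a is chr20:7150682-7150931 on the plus strand, and that of Fkbp5 is chr20:6543556-6543805 on the minus strand.
Klf9: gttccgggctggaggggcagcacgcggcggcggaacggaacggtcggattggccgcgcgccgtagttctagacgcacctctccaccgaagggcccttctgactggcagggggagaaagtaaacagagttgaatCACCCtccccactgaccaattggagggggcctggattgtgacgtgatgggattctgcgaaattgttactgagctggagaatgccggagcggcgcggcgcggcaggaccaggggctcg
Cdkn1a: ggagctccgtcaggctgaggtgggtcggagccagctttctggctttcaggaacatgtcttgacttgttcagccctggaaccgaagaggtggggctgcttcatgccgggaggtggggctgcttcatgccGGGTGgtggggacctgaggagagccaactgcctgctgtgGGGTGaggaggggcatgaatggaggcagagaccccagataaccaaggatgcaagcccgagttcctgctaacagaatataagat
Fkbp5: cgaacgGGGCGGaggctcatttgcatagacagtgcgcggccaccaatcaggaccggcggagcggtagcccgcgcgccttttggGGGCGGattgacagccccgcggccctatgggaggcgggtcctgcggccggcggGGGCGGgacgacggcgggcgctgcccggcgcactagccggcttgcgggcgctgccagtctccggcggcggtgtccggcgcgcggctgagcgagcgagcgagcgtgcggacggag

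Klf9 has CACCC once in its window and Cdkn1a has GGGTG at 2 places, whereas Fkbp5 has GGGCGG at 3 places and no CACCC. On both strands, CACCC stood in 9 of the 13 member windows, for 8 genes, and in 49.2% of all 33469 windows of the same length. GGGCGG stood in 8 member windows, for 6 genes, and in 30.5% of all windows. The hexamer AGAACA stood in none of the 13 and in 17.5% of all windows, and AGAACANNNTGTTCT, the palindrome that holds it, in none and in 0.0120%. Response elements of these genes are known to lie mostly in introns and distant enhancers, which such windows do not cover.

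Each rat had 1 array of 1 colour. The 75th percentile of spot intensity ran from 1963 to 2422 over the arrays, well-above-background calls covered 63.6% to 77.7% of probes, and no spot was saturated. A level is the log2 intensity relative to that percentile, so 0 is the percentile itself. Probes bind with different strength, so levels are compared between rats for 1 probe only. Of 13 hypothalamic markers on the array (Avp, Oxt, Pomc, Agrp, Npy, Hcrt, Pmch, Trh, Ghrh, Sim1, Nkx2-1, Otp and Hmx2), 12 were well above background on all 18 arrays, the exception being Otp. The arrays lay on 5 slides, scanned on 2 days. All 6 rats with stress and exercise were on slides 4 and 5, together with stress rats 5 and 6, while stress rats 1 to 4 and every control rat were on slides 1 to 3. The first principal component (32.1% of the variance) placed the arrays of slides 4 and 5 between 24.8 and 40.7 and those of slides 1 to 3 between -33.7 and -21.0. Within the stress group, 3093 of 31283 probes (9.89%) differed between arrays 5 and 6 and arrays 1 to 4 in limma at an adjusted p under 0.05, and none of the 13 member probes did. The slide sets thus divide the stress group, and stress with exercise and control share no slide, so for that last comparison exercise with stress and slide set cannot be told apart within a slide. Results are therefore given with the slide set as a covariate and within slide sets as well. Only the stress group lies on both slide sets. With the covariate, the difference of stress with exercise minus stress thus equals that on slides 4 and 5 and rests on stress rats 5 and 6. Stress with exercise and control are then joined only through the stress rats of both sets, which is no direct comparison.

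Of the 10 genes, 9 had a probe well above background on all 18 arrays. The exception was Pdk4, whose only probe was well above background on none, at levels between -9.51 and -7.72. A second Cdkn1a probe was well above background on 1 of 6 arrays in each group and was not tested either. Zbtb16 had 3 tested probes, Ddit4 and Errfi1 2 each, and the others 1. Probes are numbered from the brightest. The brightest Cdkn1a probe was printed as 10 spots per array and every other member probe as 1 spot.

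No member differed between any 2 groups at an adjusted p under 0.05. In limma over all tested probes, 0 of the 13 member probes passed for stress with exercise against stress, where 3.75% of all probes passed (1173 of 31283, a count that ran from 1 to 4631 when rats were left out singly). Again 0 of 13 passed for stress with exercise against control, where 26.1% of all probes passed (8152). For stress against control 0 of 13 passed and 0% of all probes. At an unadjusted limma p under 0.05 there were 3 of 13 member probes for stress with exercise against stress (24.3% of all probes), 2 for stress with exercise against control (37.5%) and 2 for stress against control (11.8%, or 3694 probes). The groups overlapped for each of the 13 probes in each of the 3 comparisons, against 1.48%, 17.1% and 0.799% of all probes that did not overlap, in the same order. By the brightest probe, the median difference of the 9 genes was -0.07 for stress with exercise minus stress, 0.000515 for stress with exercise minus control and 0.03 for stress minus control, against 0.018, 0.0046 and -0.018 over all tested probes.

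**Figure D1:**
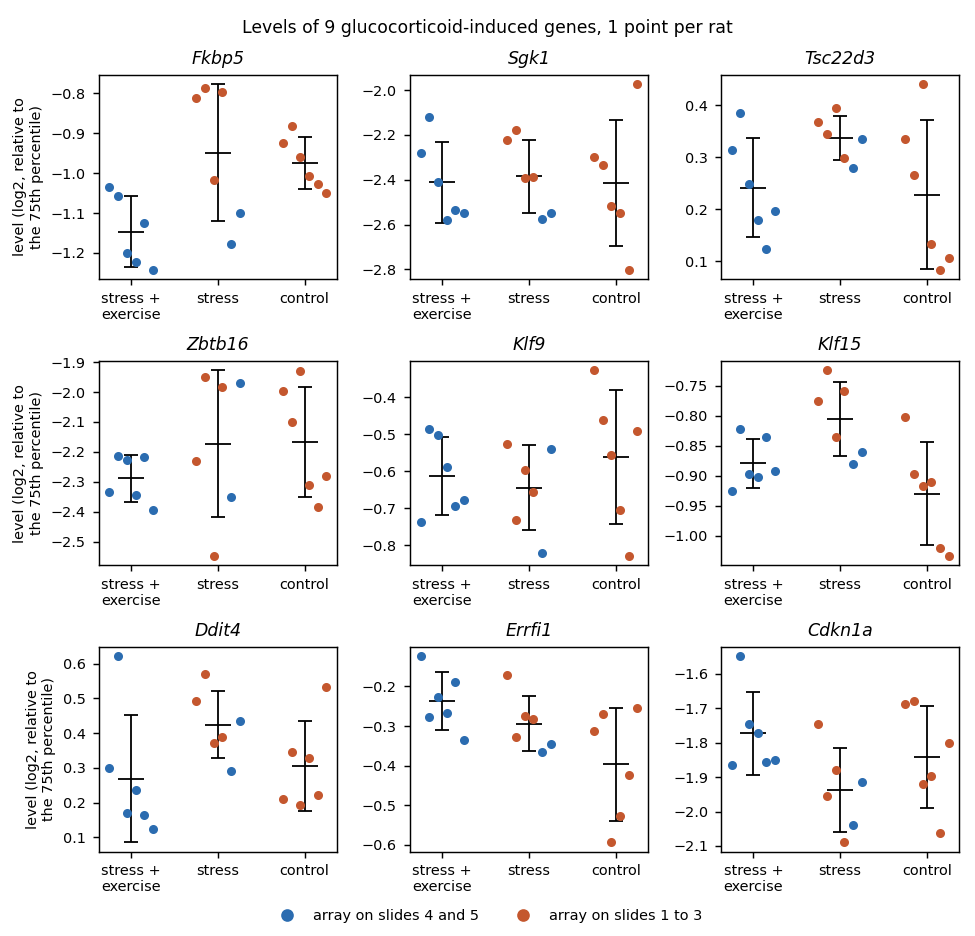
Levels (log2 intensity relative to the array's 75th percentile) of the 9 genes with a tested probe, by the brightest probe, in stress with exercise, stress and control. Points are rats, coloured by slide set, with the mean and SD of 6 rats. The groups overlap for every gene, and the stress rats of slides 4 and 5 lie among the rats with stress and exercise for Fkbp5.

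Fkbp5, the feedback gene of the receptor itself, had levels of -1.24, -1.16 and -1.03 (lowest, median, highest) in rats with stress and exercise, -1.18, -0.91 and -0.79 in stress rats, and -1.05, -0.98 and -0.88 in control rats. Stress rats 5 and 6 (-1.18 and -1.10) lay within the range of stress with exercise, and stress rats 1, 2 and 4 (-0.81, -0.79 and -0.80) lay above every control rat. The mean was -1.15 ± 0.088 with stress and exercise, -0.95 ± 0.17 in stress rats and -0.97 ± 0.065 in control rats (SD, n = 6 each). The difference of stress with exercise minus stress was -0.20 (SE 0.068), a fold of 0.871 with a 95% interval of 0.789 to 0.963, and did not pass (limma adjusted p = 0.091), with 6 of 6 rats below the stress mean. Between the arrays of slides 4 and 5 alone the same difference was -0.01 (limma adjusted p = 0.994). Adding the slide set to the fit gave the same -0.01 by design (limma adjusted p = 0.995), so this is no separate check. Both values rest on stress rats 5 and 6 as the only stress rats of slides 4 and 5. Without stress rats 5 and 6 the difference of stress with exercise minus stress was -0.29 and passed (limma adjusted p = 0.00149). It also passed without stress rat 5 alone (-0.24, limma adjusted p = 0.0179) without stress rat 6 alone (-0.23, limma adjusted p = 0.0385) and with normexp background (-0.23, limma adjusted p = 0.0466).

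Against control, Fkbp5 differed by -0.17 with stress and exercise (SE 0.068, limma adjusted p = 0.0732), with 6 of 6 rats below the control mean. With the slide set as a covariate, which joins these groups only through the stress rats, this value turned to 0.11 (limma adjusted p = 0.767). It passed with normexp background (-0.21, limma adjusted p = 0.0219), with the scan day as a block (-0.20, limma adjusted p = 0.0363) and with the replicate number as a block (-0.17, limma adjusted p = 0.039). It also passed with only the 2 groups in the fit (limma adjusted p = 0.0174) and without stress rat 5 (limma adjusted p = 0.0426), which moves only the shared estimate of spread. In the settings where it passed, 22.7% to 31.4% of all probes passed too. Stress minus control was 0.03 (SE 0.068), and the 95% interval of the fold, 0.922 to 1.13, bounds the change of the stress group as a whole. On slides 1 to 3 alone stress minus control was 0.12 (limma adjusted p = 0.603). Within the stress group, rats 5 and 6 lay 0.29 below rats 1 to 4 (difference -0.29, SE 0.087, limma adjusted p = 0.108).

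**Figure D2:**
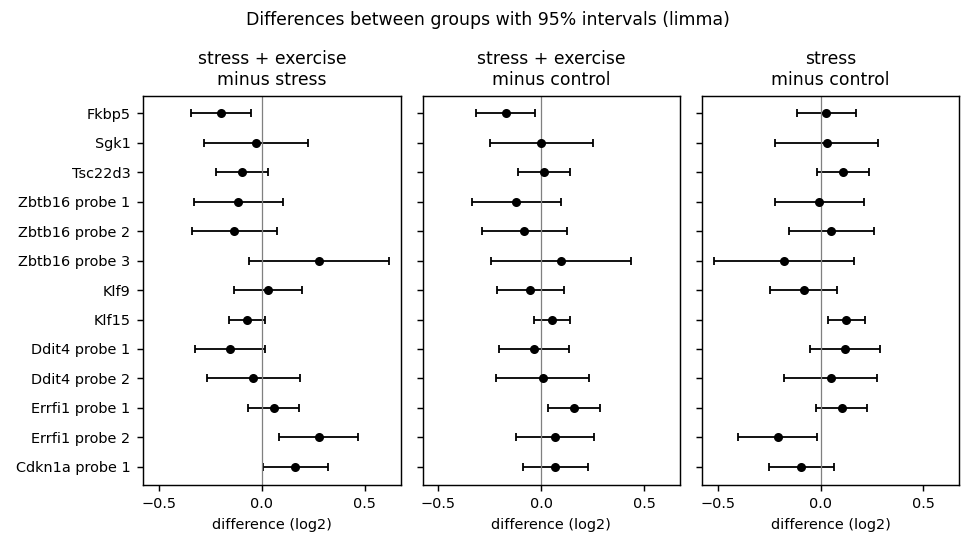
Differences in level (log2) of the 13 tested member probes, as stress with exercise minus stress, stress with exercise minus control, and stress minus control, with 95% intervals from limma over all 18 arrays. Intervals are not adjusted for the number of probes, and none of the 39 differences passed at an adjusted p under 0.05.

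Among the other direct readouts, Sgk1 had nearly the same mean in the 3 groups and spread most in control rats (SD 0.18 with stress and exercise, 0.16 with stress and 0.28 in control rats, n = 6 each). Its levels were -2.58, -2.47 and -2.12 (lowest, median, highest) with stress and exercise, -2.58, -2.39 and -2.18 with stress, and -2.80, -2.43 and -1.97 in control rats. Control rat 6 was the highest and control rat 5 the lowest of all 18. Sgk1 differed by -0.03 for stress with exercise minus stress and by 0.03 for stress minus control (SE 0.12 each), and the 95% interval of the fold was 0.857 to 1.22 for stress over control.

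Tsc22d3 stood at 0.12, 0.22 and 0.38 with stress and exercise, 0.28, 0.34 and 0.39 with stress, and 0.08, 0.20 and 0.44 in control rats. The 6 stress rats were tightly grouped inside the wider range of the control rats, of which 3 lay at or below 0.13. Stress minus control was 0.11 (SE 0.060, limma adjusted p = 0.475), with 6 of 6 stress rats above the control mean, and stress with exercise minus stress was -0.10 (limma adjusted p = 0.349).

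The transcription factors gave small differences. Klf15 stood at -0.92, -0.89 and -0.82 with stress and exercise, -0.88, -0.80 and -0.72 with stress, and -1.03, -0.91 and -0.80 in control rats. Each of the 6 stress rats exceeded the control mean, though control rat 1 (-0.80) lay within the stress range. Stress minus control was 0.12 (SE 0.042), a fold of 1.09 with a 95% interval of 1.03 to 1.16; its limma p was 0.0087 before and 0.328 after adjustment. The same difference was 0.16 on slides 1 to 3 alone (limma adjusted p = 0.435).

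Klf9 stood at -0.74, -0.63 and -0.48 with stress and exercise, -0.82, -0.63 and -0.53 with stress, and -0.83, -0.52 and -0.33 in control rats. The stress and exercise ranges lay inside that of the controls, and stress minus control was -0.08 (SE 0.078, limma adjusted p = 0.693). The brightest Zbtb16 probe stood at -2.39, -2.28 and -2.21 with stress and exercise, -2.55, -2.11 and -1.95 with stress, and -2.39, -2.19 and -1.93 in control rats. The rats with stress and exercise formed the narrowest group (SD 0.078, against 0.25 in stress rats and 0.18 in control rats), and stress with exercise minus stress was -0.12 (SE 0.10, limma adjusted p = 0.519). The third Zbtb16 probe, far dimmer, differed the other way (0.28, limma adjusted p = 0.308).

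The signalling inhibitors came closest to passing beside Fkbp5, with Errfi1 probes that differed from each other. Errfi1 probe 1 stood at -0.33, -0.25 and -0.12 with stress and exercise, -0.37, -0.30 and -0.17 with stress, and -0.59, -0.37 and -0.25 in control rats. Control rats 3, 4 and 5 lay below every restrained rat on this probe, while control rats 1, 2 and 6 lay among them. Stress with exercise minus control was 0.16 (SE 0.059, limma adjusted p = 0.0557), with 6 of 6 rats above the control mean. Over the alternatives its adjusted p ran from 0.00234 (background by normexp) to 0.478 (slide set as a covariate), and it passed without control rat 2 (limma adjusted p = 0.0355), without control rat 6 (0.0323) and without rat 6 of stress with exercise (0.0465). With normexp and without each of these rats, 23% to 25.5% of all probes passed.

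Errfi1 probe 2 stood at -5.02, -4.72 and -4.61 with stress and exercise, -5.32, -5.01 and -4.88 with stress, and -5.02, -4.80 and -4.66 in control rats. Here stress rats were the low group, with rats 3, 5 and 6 among the values of the other groups. Stress with exercise minus stress was 0.28 on this probe (SE 0.090, limma adjusted p = 0.0806) and 0.06 on probe 1. Stress minus control was -0.21 on probe 2 (limma adjusted p = 0.394) and 0.10 on probe 1, so that the signs of the probes differed. Between the arrays of slides 4 and 5 alone probe 2 differed by 0.14 for stress with exercise minus stress (limma adjusted p = 0.915), and it passed without stress rat 5 (0.31, limma adjusted p = 0.0369) and without stress rats 5 and 6 (0.34, limma adjusted p = 0.0205). Of all probes, 14.8% passed without stress rat 5 and 24.9% without stress rats 5 and 6. The latter fit leaves no stress rat on slides 4 and 5.

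Ddit4 probe 1 stood at 0.12, 0.20 and 0.62 with stress and exercise, 0.29, 0.41 and 0.57 with stress, and 0.19, 0.27 and 0.53 in control rats. Rat 2 of stress with exercise was the highest of all 18, and the next rat of its group stood at 0.30. Stress with exercise minus stress was -0.16 (SE 0.080, limma adjusted p = 0.245) and stress minus control 0.12 (limma adjusted p = 0.56). Cdkn1a probe 1 stood at -1.87, -1.81 and -1.55 with stress and exercise, -2.09, -1.93 and -1.75 with stress, and -2.06, -1.85 and -1.68 in control rats. The highest rat was again rat 2 of stress with exercise. Stress with exercise minus stress was 0.16 (SE 0.075, limma adjusted p = 0.191), with 6 of 6 rats above the stress mean, and stress minus control was -0.10 (limma adjusted p = 0.624).

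Where a gene had several probes, they were compared over the rats after the mean of each group within each slide set was subtracted. The Ddit4 probes followed each other at r = 0.86 and the 2 brighter Zbtb16 probes at r = 0.83 (n = 18 arrays). The Errfi1 probes did so at r = 0.48, and the third Zbtb16 probe followed the first at r = 0.37. Values of Errfi1 and Zbtb16 thus depend on the probe read.

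Further genes known to respond to glucocorticoids were counted from a list of 41, of which 39 had a probe and 36 were tested. None of the 36 passed for stress with exercise against stress, where 3.75% of all probes did. There 7 of the 36 had an unadjusted limma p under 0.05, beside 24.3% of all probes. For stress against control none of the 36 passed and 0% of all probes did. There 4 of the 36 had an unadjusted limma p under 0.05, beside 11.8% of all probes. For stress with exercise against control 2 of 36 passed. Glul, glutamine synthetase, fell to 1.72 ± 0.085 with stress and exercise, against 2.08 ± 0.059 in control rats (SD, n = 6 each), a difference of -0.36 (SE 0.066, limma adjusted p = 0.00132) with no overlap of the groups. Tle3, a transcriptional co-repressor, rose to -2.51 ± 0.072 with stress and exercise, against -2.64 ± 0.055 in control rats (difference 0.12, SE 0.038, limma adjusted p = 0.0263). With the slide set in the fit neither passed, at -0.06 for Glul (limma adjusted p = 0.89) and 0.08 for Tle3 (limma adjusted p = 0.785). With the slide as a random block Glul stood at -0.29 (limma adjusted p = 0.0612), and Tle3 did not pass either. Tle3 did not pass without control rats 2, 3 or 5 or rats 2 or 5 of stress with exercise, left out singly (limma adjusted p up to 0.0608), or without scaling (0.09, limma adjusted p = 0.398).

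Of 13 genes for the receptors, their chaperones, co-activators and steroid enzymes, 12 were tested. Nr3c1, the glucocorticoid receptor, averaged -0.77 ± 0.18 with stress and exercise, -0.79 ± 0.073 in stress rats and -0.74 ± 0.045 in control rats (SD, n = 6 each). Its largest difference was -0.05, for stress minus control (limma adjusted p = 0.807). Fkbp4, the co-chaperone that opposes Fkbp5 at the receptor, averaged 0.81 ± 0.063 with stress and exercise, 0.58 ± 0.12 in stress rats and 0.48 ± 0.087 in control rats. It rose for stress with exercise over stress by 0.24 (SE 0.055, limma adjusted p = 0.0405) and over control by 0.34 (limma adjusted p = 0.00072), with no overlap of the groups in either. The call against stress was lost when any rat other than stress rats 5 and 6 was left out (limma adjusted p from 0.0501 to 0.109), without scaling (0.18, limma adjusted p = 0.172) and on slides 4 and 5 alone (0.09, limma adjusted p = 0.886). The call against control held without any single rat and was lost with the slide set in the fit (0.11, limma adjusted p = 0.697).

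Stip1, which hands clients between the Hsp70 and Hsp90 chaperones, rose by 0.21 for stress with exercise over control (limma adjusted p = 0.00088), and Ncoa2, a receptor co-activator, fell by 0.60 (limma adjusted p = 0.0147). With the slide set in the fit these stood at 0.17 (limma adjusted p = 0.428) and 0.20 (limma adjusted p = 0.832), the sign of Ncoa2 having turned. Without scaling Stip1 did not pass (0.17, limma adjusted p = 0.0958), and with the slide as a random block Ncoa2 did not (-0.51, limma adjusted p = 0.198). For stress with exercise against control, 1 rose and 1 fell of the 36 and 2 rose and 1 fell of the 12, against 26.1% of all probes called in either direction. Some markers of cell types and of a neighbouring tissue passed for stress with exercise against control too, beside the same 26.1% of all probes. There, 4 of 6 striatal markers rose (Ppp1r1b, Adora2a, Pde10a and Rgs9), with a median difference of 0.41 over the 6 and all 6 above 0. The mean level of the 6 ran from -2.42 to -1.59 with stress and exercise, -2.47 to -1.89 in stress rats and -2.62 to -2.35 in control rats. Of 8 endothelial markers 2 fell (Abcb1a and Vwf), which is near the share of all probes. Of 6 microglial markers 2 fell (Cx3cr1 and Itgam) and 1 rose (Tmem119). Of 8 oligodendrocyte markers 3 rose, of 7 astrocyte markers 1 fell, and of 6 neuronal markers 1 rose. Among 7 markers of mural cells and fibroblasts 1 rose and 1 fell, as among 12 hypothalamic markers. The other marker lists held no call. The part of any of these in the differences of Fkbp5, Errfi1, Glul, Tle3, Fkbp4, Stip1 and Ncoa2 was not tested.

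Without stress rats 5 and 6, 5 of the 36 and 4 of the 12 passed for stress with exercise against stress, where 24.9% of all probes did. With the slide set in the fit, 0 of the 36 and 0 of the 12 passed in any of the 3 comparisons. Almost no probe did in that fit: 0.016% of all probes for stress with exercise against stress, 0.0224% for stress with exercise against control and 0.0032% for stress against control.

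From rat to rat, most pairs of the 9 genes had a positive correlation, and 4 of 36 passed the test. Co-variation was measured over 18 arrays after the mean of each group within each slide set was subtracted, with 100000 permutations within those sets. For rho over the 18 arrays, levels were ranked inside each of those sets and the set means of the ranks were subtracted. Of 36 pairs, 33 had r above 0, with a median of 0.38 and with 27.8% of pairs above 0.5. For the same 9 genes paired with 12965 other genes, the median was -0.03 and 4.80% were above 0.5. The pairs share the array and its scaling, and a gene enters several pairs. The 4 that passed did so at p-values adjusted over the 36 pairs, 7 had an unadjusted permutation p under 0.05, and Errfi1 and Tsc22d3 were in none of the 4.

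**Figure D3:**
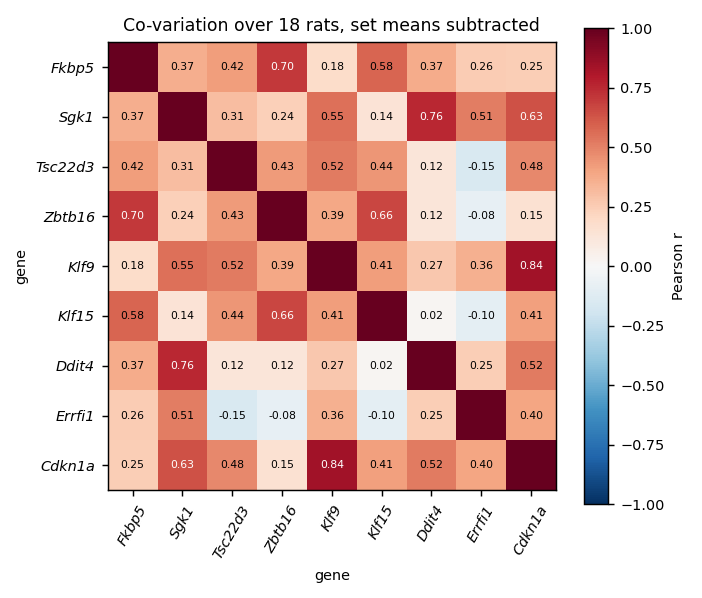
Pearson r between the levels of each pair of the 9 genes (both axes) over 18 rats, after the mean of each group within each slide set was subtracted. The colour runs from blue at -1 to red at 1; 33 of 36 pairs are above 0 and the 3 below 0 all include Errfi1.

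Klf9 and Cdkn1a formed the closest pair. Their r was 0.84 (permutation p = 9e-05, adjusted 0.00324, n = 18 arrays) and rho was 0.93 (permutation p = 4e-05, adjusted 0.00144). Without control rats 1 and 5, which lay farthest from the Klf9 median, r was 0.77 (permutation p, adjusted, 0.0306), and leaving out each rat in turn gave 0.78 to 0.89, always past the threshold. In rats with stress and exercise alone r was 0.87 (exact permutation p = 0.00139, the smallest that 720 pairings allow; adjusted over 72 correlations 0.100, n = 6). There the 6 rats had the same order on both genes (rho = 1.00). In control rats r was 0.91 (exact permutation p = 0.014, adjusted 0.250, n = 6), and none of the 72 correlations within a group passed adjustment, while 6 had an unadjusted p under 0.05. No r is given for the stress group alone, whose arrays lie on both slide sets.

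Markers of the neighbouring thalamus moved with the same pair. Of 6 thalamic markers (Tcf7l2, Prkcd, Calb2, Lef1, Plekhg1 and Ramp3), 5 had a probe, and those 5 were well above background on all 18 arrays. Their mean level ran from -1.73 to -0.30 with stress and exercise, from -2.45 to -0.95 in stress rats and from -1.97 to -0.53 in control rats, and 0 of 5 differed between groups at a limma adjusted p under 0.05. The median difference of the 5 was 0.56 for stress with exercise minus stress and -0.50 for stress minus control, beside 0.16 and -0.10 for Cdkn1a. After the set means were subtracted it correlated with Klf9 at r = 0.76 and with Cdkn1a at r = 0.82 (n = 18 arrays). Prkcd, Lef1, Plekhg1 and Ramp3 each had r between 0.74 and 0.83 with either gene, and Calb2 had -0.24 and -0.26. With a straight line on the thalamic mean taken out of both genes, the r of Klf9 and Cdkn1a was 0.57. The mean of the 36 further glucocorticoid-responsive genes followed the pair almost as closely, at r = 0.67 with Klf9 and 0.76 with Cdkn1a, and that of the 12 receptor, chaperone and enzyme genes at 0.40 and 0.54. The mean of the 12 tested hypothalamic markers ran from 0.38 to 0.77 with stress and exercise, 0.42 to 0.84 in stress rats and 0.28 to 0.59 in control rats. It correlated at -0.61 with Klf9 and -0.60 with Cdkn1a, and 11 of its 12 genes had r below 0 with each. The part of dissection or tissue makeup in the correlation was not tested, and in whole tissue fewer cells of a type and less RNA per cell cannot be told apart.

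**Figure D4:**
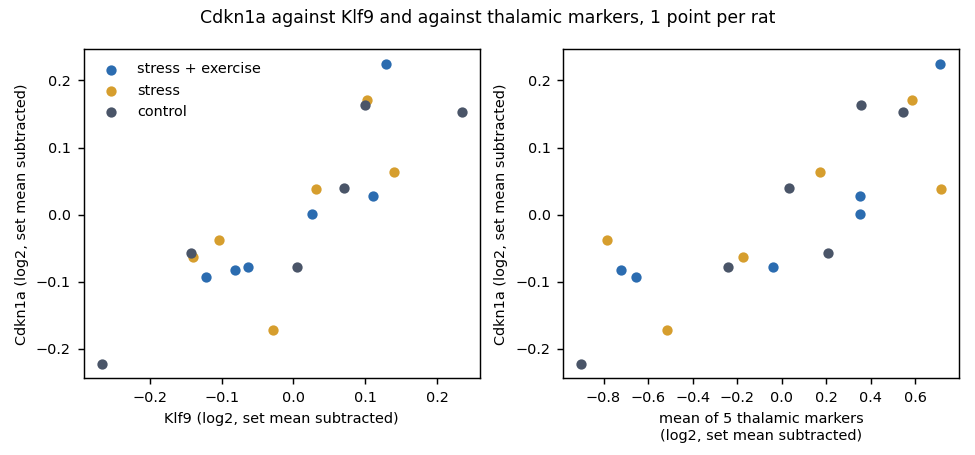
Cdkn1a level against Klf9 level (left) and against the mean of 5 thalamic markers (right), both in log2 with the mean of each group within each slide set subtracted. Points are the 18 rats, coloured by group; the correlations are 0.84 and 0.82, and rats of all 3 groups lie along both trends.

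The other 3 pairs rested on less. Sgk1 and Ddit4 had r = 0.76 (permutation p = 0.00106, adjusted 0.0191) and rho = 0.58 (permutation p = 0.0398, adjusted 0.287). With set means subtracted, control rat 6 and rat 2 of stress with exercise were the highest on both genes. Without rat 2 of stress with exercise the pair no longer passed (permutation p, adjusted, 0.0699). With control rats 5 and 6 left out, farthest from the Sgk1 median, r stayed at 0.75 (adjusted permutation p = 0.0675). Over all 18 rats, r was 0.74 without scaling (adjusted permutation p = 0.0503). With the mean of each group subtracted slide by slide it was 0.72 (adjusted permutation p = 0.118), while Klf9 and Cdkn1a (0.79), Fkbp5 and Zbtb16 (0.82) and Zbtb16 and Klf15 (0.64) passed that way (adjusted permutation p = 0.0437 each).

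Fkbp5 and Zbtb16 had r = 0.70 (permutation p = 0.00281, adjusted 0.0253) and rho = 0.68 (permutation p = 0.0125, adjusted 0.224). Without stress rat 3, low on both genes with set means subtracted, r was 0.53 (permutation p, adjusted, 0.122), and without stress rat 3 and rat 6 of stress with exercise it was 0.51 (adjusted permutation p = 0.183). Zbtb16 and Klf15 had r = 0.66 (permutation p = 0.0028, adjusted 0.0253) and rho = 0.58 (permutation p = 0.0395, adjusted 0.287). Without control rat 3 and stress rat 3, farthest from the Zbtb16 median, r was 0.67 (adjusted permutation p = 0.0675). For each of these pairs, 10 of the 18 rats, left out singly, ended the call, with adjusted permutation p-values of up to 0.122 and 0.110. Those were control rats 1 and 5, the 6 stress rats and rat 2 of stress with exercise for both pairs, with rat 6 of stress with exercise for Fkbp5 and Zbtb16 and control rat 2 for Zbtb16 and Klf15. Without scaling by the 75th percentile r fell to 0.39 and 0.16. Log2 of that percentile itself correlated with Zbtb16 at -0.62, with Klf15 at -0.63 and with Fkbp5 at -0.44, and its part in the pairs was not tested.

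Errfi1 had r below 0 with Tsc22d3 (-0.15), Zbtb16 (-0.08) and Klf15 (-0.10), and none of these passed. Its r was highest with Sgk1 (0.51), then Cdkn1a (0.40), Klf9 (0.36), Fkbp5 (0.26) and Ddit4 (0.25). The signs depended on the processing. With normexp background, r with Tsc22d3, Zbtb16 and Klf15 was 0.0075, 0.0061 and 0.20. Without scaling it was 0.27, -0.13 and 0.52, and Fkbp5 and Errfi1 passed (r = 0.61, adjusted permutation p = 0.0383). The mean of 7 markers of mural cells and fibroblasts, all well above background on all 18 arrays, followed Errfi1 at r = 0.73. Among them Col1a1 (0.72), Acta2 (0.71), Dcn (0.65) and Vtn (0.53) followed it, while Pdgfrb (-0.03), Rgs5 (-0.04) and Abcc9 (0.06) did not. That mean ran from -2.85 to -2.45 with stress and exercise, -3.16 to -2.44 in stress rats and -3.01 to -2.48 in control rats. The mean of 8 oligodendrocyte markers followed Errfi1 at r = 0.62. It ran from 1.88 to 2.05 with stress and exercise, 1.79 to 1.91 in stress rats and 1.70 to 1.88 in control rats, and 3 of the 8 rose for stress with exercise against control. The part of either cell type was not tested.

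Among 12965 other named genes with a tested probe, those most like the mean of the 9 standardised genes over the 18 arrays, set means subtracted, were Gpd1 (r = 0.92), Adipor2 (0.91), Rac1 (0.85), Zfp217 (0.84) and Gpatch4 (0.83). Gpd1 encodes the cytosolic glycerol-3-phosphate dehydrogenase and Adipor2 a receptor for adiponectin. Those most like Fkbp5 alone were Bmp2 (r = 0.91), Hddc3 (0.86), Tkt (0.77), Anxa3 (0.76) and Tex261 (0.76). These genes were picked as the highest of all, so their r is a description.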

How the data were processed

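Hypothalamic RNA of each rat was labelled with Cy3 and hybridised to 1 Agilent rat array; the labels give 2 different amounts of input RNA. The intensity used is the processed signal of the deposited scanner files, made with Agilent Feature Extraction (12.1.0.3 per the file headers, 9.1 per the submitters' processing notes) and already corrected for background. The intensity of the deposited series matrix equals it times 1 constant per array (1.02 to 1.24; column medians 156.67 to 176.491), so it is linear and not centred by gene; no source used here explains the constant.

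Control spots and, on each array, 297 to 580 outlier spots were dropped, log2 spots of a probe averaged, and the log2 75th percentile over 58717 spots that are not controls subtracted. Because 1350 bright probes have 10 spots each, that percentile lies above that over probes. A probe was tested if well above background on at least 5 of 6 arrays of a group. Groups were taken from the labels and compared with limma 3.58.1 (R 4.3.3) on 18 arrays with group as the only term, two-sided, with Benjamini-Hochberg adjustment over all tested probes. Correlations used the brightest tested probe per gene and two-sided permutation in scipy 1.17.1 or numpy 2.4.6. Probes were named by accession through RefSeq (21220 of 45598 matched 1 symbol); the array was designed on an older build, so only promoter windows carry positions. The fit was tested on simulated data. The number of arrays limits the precision.

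Members, lists and the slide sets were chosen with earlier results of these data known. The rule for names took all members, listed genes that passed, and the 5 genes most like the members' mean and Fkbp5; Nr3c1 was named outside it, with its values known. The marker lists of astrocytes, endothelium, microglia, neurons, striatum, cortex and hippocampus, choroid plexus, pituitary and blood had mean levels correlating with single members at r between -0.50 and 0.55. Alternatives covered background correction, scaling, filter, slide, scan day, samples, replicate number and probe. Same-numbered rats did not deviate together (correlations from -0.25 to 0.19), so numbers were not taken as pairs.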

Additional observations from a re-analysis of the deposited data

Results flagged for a closer look

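Of 39 sets of 6 rats (13 member probes in 3 groups), 1 held a rat far from the others, and chance alone gives about 1 in 20. It was rat 2 of stress with exercise on Ddit4 probe 1, at a level of 0.62 with the nearest rat of its group at 0.30; the gap was 0.649 of the group's range, above Dixon's critical value for 6 samples. By the brightest probe, the same rat was the highest of its group on 7 of the 9 genes: Ddit4, Cdkn1a (-1.55), Sgk1 (-2.12), Tsc22d3 (0.38), Zbtb16 (-2.21), Klf9 (-0.48) and Klf15 (-0.82). On Zbtb16 it was all but level with rat 5 of the group (-2.2146 against -2.2156), and on Zbtb16 probes 2 and 3 rat 1 of the group was the highest. Rat 2 of stress with exercise also had the highest mean of the 9 genes (-0.84) and of the thalamic markers (-0.30) of all 18 rats.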

How the results depend on the processing

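Over 32 other settings, the 39 differences of member probes gave 1183 values, of which 16 passed: 9 for Fkbp5, 5 for Errfi1 probe 1 and 2 for Errfi1 probe 2. The sign turned in 61 of the 1183, none of which passed. For stress with exercise against control, member probes called numbered 2 with normexp, and 1 each with the percentile over probes, the scan day as a block, the replicate block and the 2 groups alone, against 0 as reported. In the same order, 25.5%, 27.2%, 31.4%, 22.7% and 28.7% of all probes passed, against 26.1% as reported. For stress with exercise against stress, member probes called numbered 1 with normexp (5.16% of all probes) and 2 without stress rats 5 and 6 (24.9%). Leaving out each rat gave 0 to 2 member probes for stress with exercise against stress (0.0032% to 14.8% of all probes) and 0 to 1 against control (22.3% to 27.4%). The replicate block gave Fkbp5 -0.17 for stress with exercise against control (limma adjusted p = 0.039), and 2 probes in all passed against stress.

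Counts over all probes moved with the slides. For stress with exercise against stress, 1173 became 0 with the slide as a random block, 5 with the slide set as a covariate, 3 on slides 4 and 5, 2 without a filter on dim probes, 0 with the 2 groups alone, 3109 with the scan day and 7793 without stress rats 5 and 6; leaving out each rat gave 1 to 4631 (4631 without stress rat 5, 4180 without stress rat 6, 1 to 9 without any other rat of these groups, and 2 to 352 without a control rat). For stress with exercise against control, 8152 became 1758 with the slide as a random block, 7 with the slide set and 5169 without scaling. For stress against control, 0 became 2 with quantile normalization, 1 with the slide set, 467 with the scan day and 2 without stress rats 5 and 6. The 4 correlated pairs became 1 by rho from ranks within sets and 1 without the 2 farthest rats. Leaving out each rat gave 1 to 6. Ncoa2 turned to 0.20 for stress with exercise against control with the slide set in the fit. The cause of these shifts was not tested. The series matrix gave the counts as reported. The files hold no mean signal, so normexp was run on median signals, and this setting, the percentile over probes, the removal of stress rats 5 and 6, the single-rat and slide checks of pairs and the thalamic line were chosen after seeing the data.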
